A study of Homo sapiens with 4 samples.

Results

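The genes described here are the human ABC transporter genes, the family of ATP-binding cassette proteins. They are defined by name and biotype, as the protein-coding rows whose symbol is ABC, a letter from A to G and a number. This rule found 45 genes among 43622 gene rows, 19818 of them protein-coding. Messenger RNA of 2 human lung adenocarcinoma lines, A549 and NCI-H1993 (H1993), was sequenced in 4 libraries, with each line grown once as an attached layer (adherent) and once as floating cell clusters (spheroid). The study set out to compare triacylglycerol synthesis between the cultures and treats the spheroids as enriched in cancer stem cells. Its design text also speaks of inhibitors and shRNA, and the labels name neither for these 4 libraries, whose cells carry no named transgene. Each combination of line and culture was sequenced in a single library, so pairwise differences lack a replicate check, and in such bulk RNA fewer cells of a type and less RNA per cell cannot be told apart. Where 4 values are listed below without names, they follow the order A549 adherent, A549 spheroid, the library labelled H1993 adherent, H1993 spheroid.

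The libraries held between 15331121 and 17681746 exonic reads. Over all genes, the library labelled H1993 adherent resembled the A549 adherent library more than the H1993 spheroid one. Across 14759 autosomal genes, which are not independent replicates and share each library's depth, Pearson's r of log2 levels was 0.947 with A549 adherent and 0.845 with H1993 spheroid. CDKN2A, a tumour suppressor gene known to be deleted in A549, had 0, 0, 75 and 308 reads, and MET, a receptor gene known to be amplified in H1993, had 4545, 4083, 6549 and 26102. Differences that involve the library labelled H1993 adherent may therefore mix line and culture, which cannot be told apart, and the 2 comparisons without it are the A549 pair and the pair of spheroid libraries. All 5 epithelial markers were detected in every library, but not evenly, with KRT8 between 32265 and 82350 reads, EPCAM at 413, 308, 266 and 4716 and KRT19 at 1311, 5351, 666 and 28510. By the size rule given below, 5 of these 5 were higher in the H1993 pair, and 1 was higher and 1 lower in A549. Of the lung lineage genes, SFTPB and SFTPC had at most 2 reads, NKX2-1 had 0, 0, 12 and 13 and NAPSA 15, 32, 27 and 8. Of defining markers of other cell types, PTPRC of blood had 0, 0, 0 and 45 reads, CD3E of T cells at most 1, VWF of endothelium at most 2 and PDGFRB of stromal cells at most 3. Other genes on these lists differed between libraries. The summed TPM was 25.7, 131, 49.8 and 114 for 3 blood genes, nearly all of it CD68, with 0.332, 3.22, 1.43 and 2.50 for 3 endothelial and 1.76, 20.7, 22.4 and 3.23 for 3 fibroblast genes. Of the 5 tested genes on these 3 lists, CD68, PECAM1, DCN and LUM were higher and CDH5 lower in A549 spheroids, where 12.4% of all genes were higher and 10.3% lower. DCN and CDH5 rest on few reads there, with 0 and 6 for DCN and 7 and 0 for CDH5 in the adherent and spheroid library. In the H1993 pair CD68 and PECAM1 were higher and LUM lower, where 17.0% of all genes were higher and 18.0% lower. The part of these genes in the results was not tested.

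ABC proteins bind and hydrolyse ATP, and most of them use that energy to move a substrate across a membrane. Pumps of the ABCB, ABCC and ABCG subfamilies expel drugs and conjugated metabolites from the cell, members of the ABCA and ABCG subfamilies export cholesterol and phospholipid, and the ABCD subfamily carries fatty acyl-CoA into peroxisomes. The ABCE and ABCF proteins have the ATP-binding domains without a membrane domain and act in translation. In lung tumours the drug pumps are studied for chemotherapy resistance, and ABCG2 is widely used to recognise side-population cells, which exclude a dye and are enriched in stem cell properties.

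The promoters of 4 genes are shown because the results below turn on them, ABCG2 for its opposite differences, ABCC2 and ABCC4 for their low reads in H1993 spheroids and ABCA2 for its high reads there. RefSeq windows (GRCh38.p14, 250 bases before to 50 after a start) were matched by symbol for 35 of the 45 genes. The windows are chr4:88158860-88159159 on the minus strand for ABCG2 (the median of its 5 RefSeq starts), chr10:99782390-99782689 on the plus strand for ABCC2, chr13:95301402-95301701 on the minus strand for ABCC4 and chr9:137028873-137029172 on the minus strand for ABCA2. Each is printed 5′ to 3′ in the direction of its gene, with capitals marking matches on either strand to any of 5 motifs named after the sequences.
ABCG2: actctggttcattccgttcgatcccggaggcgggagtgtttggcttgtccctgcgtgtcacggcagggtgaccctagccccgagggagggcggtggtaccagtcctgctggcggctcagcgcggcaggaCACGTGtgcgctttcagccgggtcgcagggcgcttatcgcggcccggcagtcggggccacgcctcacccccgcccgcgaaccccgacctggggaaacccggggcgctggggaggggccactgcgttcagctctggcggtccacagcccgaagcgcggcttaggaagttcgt
ABCC2: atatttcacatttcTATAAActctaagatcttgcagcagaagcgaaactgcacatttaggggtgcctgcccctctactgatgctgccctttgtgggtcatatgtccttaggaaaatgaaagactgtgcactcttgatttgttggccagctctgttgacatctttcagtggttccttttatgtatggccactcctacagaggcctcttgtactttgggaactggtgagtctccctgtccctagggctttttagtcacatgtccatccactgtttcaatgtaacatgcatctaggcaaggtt
ABCC4: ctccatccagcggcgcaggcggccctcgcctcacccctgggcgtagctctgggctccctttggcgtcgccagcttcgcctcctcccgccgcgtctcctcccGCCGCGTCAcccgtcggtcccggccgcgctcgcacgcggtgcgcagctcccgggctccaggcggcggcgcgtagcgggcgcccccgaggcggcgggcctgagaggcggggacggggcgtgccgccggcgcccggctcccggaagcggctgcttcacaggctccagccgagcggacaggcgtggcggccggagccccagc
ABCA2: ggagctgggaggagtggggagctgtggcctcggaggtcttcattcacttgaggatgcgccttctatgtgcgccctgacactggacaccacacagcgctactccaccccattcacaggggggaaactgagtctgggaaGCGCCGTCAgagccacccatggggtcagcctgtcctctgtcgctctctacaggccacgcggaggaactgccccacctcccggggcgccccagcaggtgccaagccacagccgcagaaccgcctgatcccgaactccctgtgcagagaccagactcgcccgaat
The ABCC4 and ABCA2 windows each held 1 match to the antioxidant response core TGACNNNGC, at -149 and -113 from the start. This motif was found in 13.3% of 35116 promoter windows of the same length and in 8 of the 35 ABC genes matched, each read at the start nearest the 5′ end of its gene. In the ABCG2 window the hypoxia response core ACGTG matched on both strands at overlapping positions, -121 and -120. It was held by 21.4% of all windows and by 10 of the 35 genes, ABCG2 not among them because its nearest start has another window. ABCC2 held the TATA box letters TATAAA at -236, which 11.5% of all windows held. The letters CCAAT matched in 0 of these 4 windows and in 34.6% of all windows. The nuclear receptor half-site AGGTCA also matched in 0 of the 4 and in 13.8% of all windows. The GC box GGGCGG, not marked by capitals, matched 2 times in the ABCG2 window and was in 45% of all. These matches describe letters and show no binding, and the tables do not say which start was used.

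A549 cells carried their ABC transcripts mostly in 3 pumps of organic anions. ABCC1, ABCC2 and ABCC3 together made up 53.4%, 58.8%, 48.1% and 19.9% of the summed TPM (a transcript level scaled by exon length and library depth) of the 45 genes, so the H1993 spheroid library stood apart. In H1993 spheroids the highest TPM belonged to ABCG2 at 174, followed by ABCC3 at 161 and ABCA2 at 113. The highest in A549 adherent cells were ABCC2 at 295, ABCC3 at 259 and ABCC1 at 170, and in A549 spheroids the same genes stood in the order ABCC3 at 378, ABCC2 at 216 and ABCC1 at 133. The summed TPM of all 45 genes spanned a narrower range, with 1355, 1237, 1076 and 1038. Lipid, sterol and bile exporters held 6.22%, 12.6%, 10% and 21.1% of it, so that the spheroid share was the larger in both pairs as labelled. Of these exporters, ABCA2 alone held 1.51%, 2.56%, 1.91% and 10.8%, a large part of the share in H1993 spheroids.

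**Figure D1:**
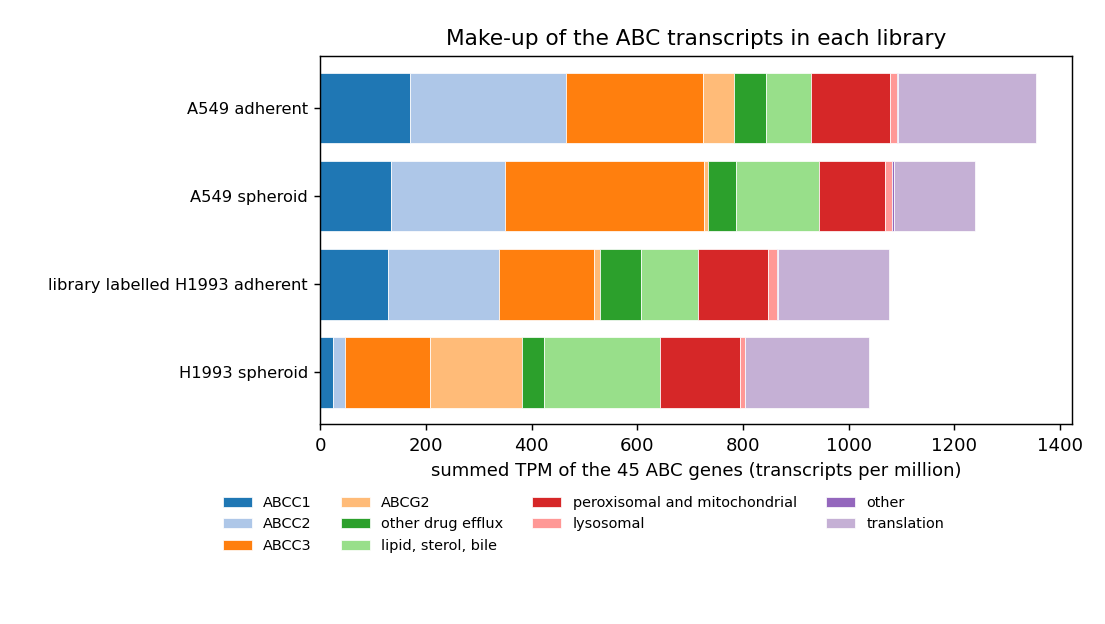
Summed TPM of the 45 ABC genes (horizontal axis) in each of the 4 libraries, with bars divided by gene or role. ABCC1, ABCC2 and ABCC3 take 53.4% of the A549 adherent bar and 19.9% of the H1993 spheroid bar, where ABCG2 takes 16.7%.

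Of the 45 genes, 28 had at least 100 exonic reads in 1 or more libraries, 16 had between 1 and 99 in their highest library and 1, ABCG8, had 0 in all. The filter on low counts kept 31 genes, and the other 14 are counted as not tested. The size rule for higher or lower asked for a fold of at least 2 and for a 95% counting interval of the fold that excluded no change. This rule compares libraries, and the intervals cover counting error only.

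**Figure D2:**
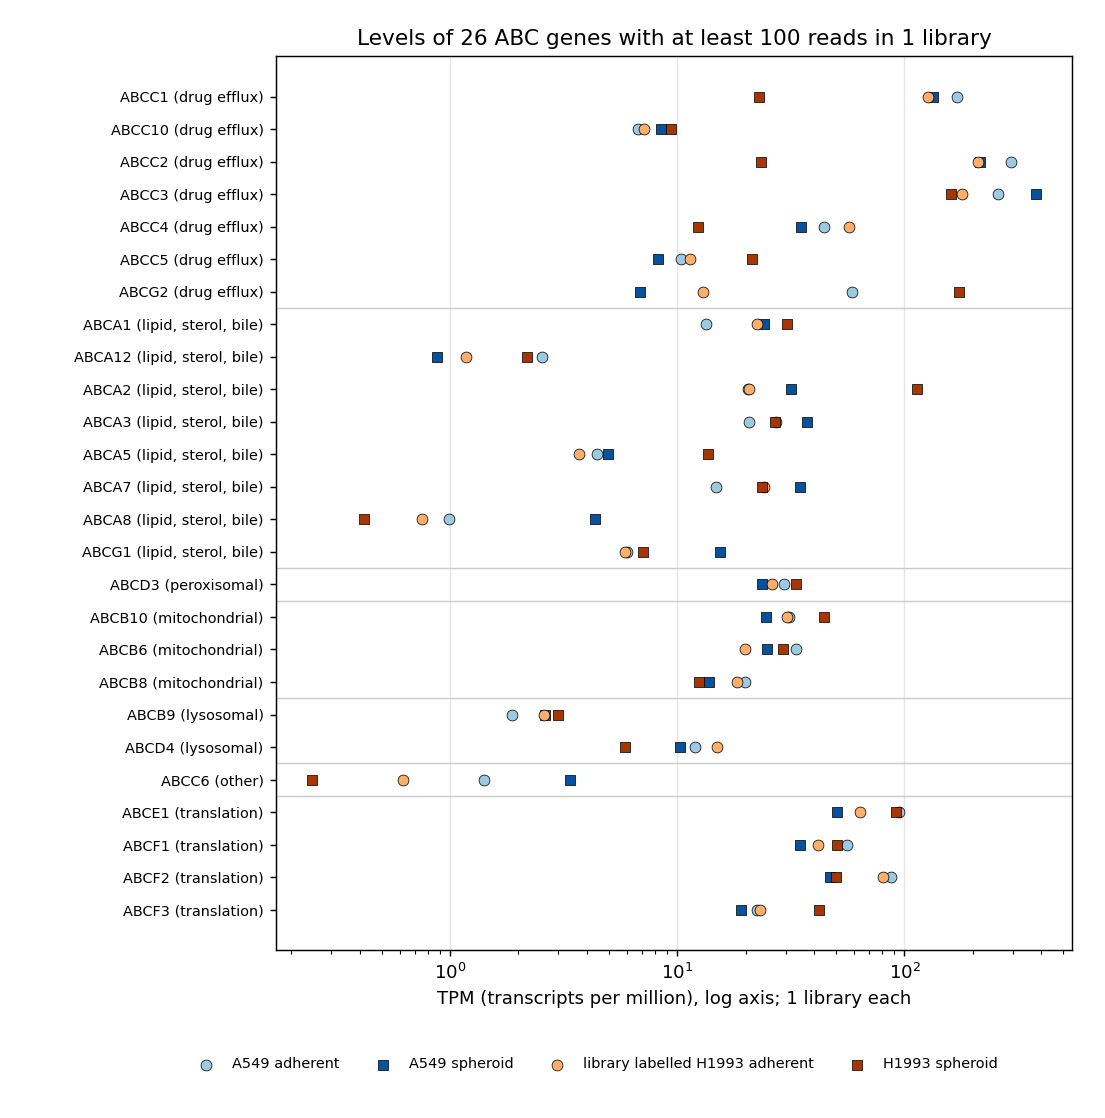
TPM on a log axis for 26 of the 28 ABC genes with at least 100 reads in a library, grouped by role, 1 point per library. ABCC1, ABCC2 and ABCC4 of H1993 spheroids lie apart below the other 3 libraries, and ABCG2 spans from 6.88 in A549 spheroids to 174 in H1993 spheroids.

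Among the drug pumps, ABCG2 differed between the cultures in opposite directions in the 2 pairs as labelled. ABCG2 (ENSG00000118777, chromosome 4, 88090264 to 88231322, hg38), a half-size pump of drugs and urate, had 1314, 173, 321 and 3591 reads. Its TPM stood at 58.9, 6.88, 13 and 174. Within A549 it was lower in spheroids, with a log2 fold of -2.97 (-3.23 to -2.76), and within the H1993 pair as labelled it was higher, at 3.66 (3.50 to 3.84). Both A549 spheroids and the library labelled H1993 adherent were thus low, and the spheroid libraries were 22.3-fold apart.

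ABCC2, ABCC1 and ABCC4 were low in H1993 spheroids and stayed within 2-fold in the A549 pair and between the libraries labelled adherent. ABCC2, also called MRP2, exports glucuronide and glutathione conjugates (ENSG00000023839, chromosome 10, 99782732 to 99852192). It had 8460, 6991, 6698 and 619 reads. The log2 fold of spheroid over adherent was -0.34 (-0.38 to -0.29) in A549 and -3.25 (-3.37 to -3.13) in the H1993 pair. ABCC1, or MRP1, a pump of glutathione conjugates and leukotrienes (ENSG00000103222, chromosome 16, 15949577 to 16143074), showed the same order, with 5926, 5248, 4922 and 741 reads. Its log2 folds were -0.24 (-0.29 to -0.18) and -2.55 (-2.66 to -2.44). ABCC4, or MRP4, which exports cyclic nucleotides and prostaglandins (ENSG00000125257, chromosome 13, 95019829 to 95301446), had 1591, 1419, 2275 and 409 reads, with folds of -0.23 (-0.33 to -0.12) and -2.29 (-2.45 to -2.14). Only the folds of the H1993 pair passed 2-fold for these 3 genes, and whether the 2 pairs differ was not tested.

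ABCC3, ABCC5 and ABCC10 stayed within 2-fold in both pairs. ABCC3, or MRP3, which moves bile salts and glucuronides (ENSG00000108846, chromosome 17, 50634777 to 50692252), had 11438, 18869, 8795 and 6591 reads, with log2 folds of 0.66 (0.63 to 0.69) in A549 and -0.23 (-0.28 to -0.19) in the H1993 pair. ABCC5, or MRP5, a pump of cyclic GMP and nucleotide analogues, had 550, 489, 666 and 1039 reads, with folds of -0.23 (-0.41 to -0.05) and 0.82 (0.68 to 0.97). ABCC10 was the most even, with 250, 355, 294 and 325 reads. ABCB1, the P-glycoprotein drug pump, lies outside the read limit and is named after its values were seen, because of its part in drug resistance. It had 8 exonic reads in A549 adherent cells and 0 in the other 3 libraries, where 3 reads, the limit that a count of 0 allows, correspond to between 0.170 and 0.196 CPM (counts scaled by library depth). ABCC11, another pump of cyclic nucleotides, had between 5 and 10 reads. Of the 9 drug efflux genes 7 were tested, and their median log2 fold was -0.23 in both pairs, against medians of 0.00 over all genes tested. Of these, 0 were higher and 1 lower in A549, and 1 was higher and 3 lower in the H1993 pair. Over all genes tested the size rule called 12.4% higher and 10.3% lower in A549, and 17.0% higher and 18.0% lower in the H1993 pair.

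Lipid, sterol and bile exporters, the largest group, also had the most genes higher in A549 spheroids. Of 18 genes 10 were tested, 4 were higher and 1 lower, against 12.4% higher and 10.3% lower of all genes tested. Their median log2 fold was 0.96. In the H1993 pair 3 of the 10 were higher and 1 lower, against 17.0% and 18.0% of all genes, with a median of 0.27. ABCG1, which loads cholesterol onto high-density lipoprotein (ENSG00000160179, chromosome 21, 42199689 to 42297244), had 169, 493, 184 and 184 reads. Only A549 spheroids were high, and the folds were 1.47 (1.23 to 1.74) and 0.18 (-0.12 to 0.49). ABCA1, the exporter that builds nascent high-density lipoprotein (ENSG00000165029, chromosome 9, 104781002 to 104928237), had 698, 1414, 1294 and 1468 reads, so that A549 adherent cells were low and the other 3 libraries near each other. Its folds of 0.95 (0.82 to 1.09) and 0.37 (0.26 to 0.47) stayed under 2-fold.

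Several ABCA genes of internal lipid transport also differed. ABCA2, an endosomal and lysosomal lipid transporter (ENSG00000107331, chromosome 9, 137007227 to 137028922), had 1085, 1895, 1209 and 5531 reads. Its log2 folds were 0.74 (0.63 to 0.85) in A549 and 2.38 (2.29 to 2.47) in the H1993 pair, so the spheroid library was the higher one in both pairs and past 2-fold in the H1993 pair. ABCA5, a further lysosomal member, stood out in the same library, with 268, 338, 247 and 766 reads and folds of 0.27 (0.04 to 0.51) and 1.81 (1.61 to 2.03). ABCA7, which moves phospholipid and is linked to Alzheimer's disease (ENSG00000064687, chromosome 19, 1040101 to 1065572), had 571, 1506, 1029 and 846 reads, with folds of 1.33 (1.20 to 1.48) and -0.10 (-0.23 to 0.03). ABCA3, the surfactant lipid pump of alveolar type II cells (ENSG00000167972, chromosome 16, 2275881 to 2340746), was read 741, 1507, 1084 and 897 times, with folds of 0.96 (0.83 to 1.09) and -0.09 (-0.22 to 0.04). For ABCA7 and ABCA3 A549 spheroids were the highest of the 4 libraries.

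ABCA12, the lipid transporter of the skin barrier, was lower in A549 spheroids, with 110, 43, 56 and 88 reads and folds of -1.38 (-1.96 to -0.90) and 0.81 (0.34 to 1.35). The gene cluster ABCA8, ABCA9, ABCA6, ABCA10 and ABCA5 on chromosome 17 (68867292 to 69327244) did not move as 1 unit. ABCA8 had 51, 254, 43 and 20 reads, and its fold was 2.21 (1.81 to 2.72) in A549 and -0.86 (-1.76 to -0.12) in the H1993 pair. ABCA10, with 10, 52, 10 and 29 reads, was higher in the spheroid library of both pairs as labelled, at 2.11 (1.32 to 3.46) and 1.53 (0.64 to 2.92). It was the only gene of the 31 past the rule in the same direction in both pairs. It overlaps ABCA5 on the same strand by 536 bases, but 100% of the exonic reads of each gene were unique. ABCA9 and ABCA6 had at most 3 and 17 reads in any library. ABCG4, a sterol exporter of brain, named like ABCA10 and ABCC8 after its values were seen, with 15, 11, 40 and 3 reads, was lower in the H1993 pair at -2.93 (-5.89 to -1.90), a value with only 3 reads in 1 library. ABCB4, ABCB11, ABCG5 and ABCG8, which secrete bile lipids and bile salts in liver, had at most 20, 12, 1 and 0 reads.

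ABCD3, the peroxisomal carrier of branched and dicarboxylic acyl-CoA, was nearly even at 1018, 922, 1003 and 1073 reads, with log2 folds of -0.21 (-0.34 to -0.08) in A549 and 0.28 (0.16 to 0.41) in the H1993 pair. ABCD2, a further peroxisomal carrier, had at most 2 reads in any library. Of the mitochondrial genes, ABCB8, part of a potassium channel, had 850, 669, 869 and 499 reads and was lower in the spheroid library of each pair by less than 2-fold, at -0.41 (-0.56 to -0.26) and -0.61 (-0.78 to -0.46). ABCB10, which serves heme synthesis, had 610, 542, 658 and 804 reads, with folds of -0.23 (-0.40 to -0.06) and 0.47 (0.32 to 0.62). ABCB6, linked to porphyrin transport, had 800, 669, 528 and 647 reads, with folds of -0.32 (-0.47 to -0.17) and 0.48 (0.31 to 0.65). Both thus stayed within 2-fold and lay on opposite sides of no change in the 2 pairs. Only 11.1% of ABCB6 reads were unique, since its row is overlapped along 9219 bases by ATG9A on the same strand, so its counts are uncertain.

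ABCD4, which moves cobalamin out of lysosomes with LMBRD1, was lower in H1993 spheroids, with 483, 468, 669 and 221 reads and folds of -0.11 (-0.30 to 0.08) and -1.41 (-1.64 to -1.19). Part of these reads is not unique (85.0% were), and a sense-overlapping gene lies across it. ABCB9, a lysosomal peptide carrier with 115, 180, 175 and 170 reads, was at 0.58 in A549 and 0.14 in the H1993 pair. On the opposite strand ARL6IP4, with 1951, 1745, 1801 and 1333 reads, and OGFOD2 overlap ABCB9. Its counts are therefore uncertain, since the use of strand in counting is not given. ABCC6, a liver protein that releases ATP from cells, was the second gene with opposite differences, with 49, 133, 24 and 8 reads and folds of 1.34 (0.89 to 1.88) and -1.22 (-2.77 to -0.20). It has closely similar pseudogene copies, though 100% of its exonic reads were unique, and its counts rest on few reads in H1993. ABCC8, the sulfonylurea receptor of the potassium channel, had 21, 13, 58 and 12 reads and a fold of -1.93 (-3.12 to -1.18) in the H1993 pair, while in A549 its interval included no change. ABCB5, ABCC9 and ABCC12 had at most 3 reads in any library.

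Of the 4 ABC genes of translation, 0 passed the size rule in either pair. ABCE1, which splits ribosomes for reuse, had 2733, 1640, 2031 and 2451 reads, with log2 folds of -0.80 (-0.89 to -0.71) and 0.45 (0.37 to 0.54). ABCF2, with 1790, 1089, 1832 and 953 reads, was lower in the spheroid library of both pairs, at -0.78 (-0.89 to -0.67) and -0.76 (-0.87 to -0.65). ABCF1, which binds the initiation factor of translation, had 1165, 816, 964 and 975 reads and stood at -0.58 (-0.71 to -0.45) and 0.20 (0.07 to 0.33), and ABCF3, with 540, 517, 612 and 934 reads, at -0.13 (-0.30 to 0.05) and 0.79 (0.64 to 0.94). The median of the 4 was -0.68 in A549 and 0.33 in the H1993 pair.

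Over the family, counts of genes past the rule lay near those of all genes. In A549 spheroids 5 of the 31 tested genes were higher (16.1%) and 2 lower (6.45%), against 12.4% higher and 10.3% lower of all 15273 genes tested. In the H1993 pair as labelled 4 were higher (12.9%) and 7 lower (22.6%), against 17.0% and 18.0% of all genes. The median log2 fold of the 31 was -0.13 in A549 and 0.18 in the H1993 pair, with 0.00 over all genes in both. Across the 2 pairs, 1 gene was higher in both (ABCA10), 0 were lower in both, 2 were opposite (ABCG2 and ABCC6) and 16 were past the rule in neither pair. With line as a term, edgeR's quasi-likelihood test of culture over the 4 libraries had 1 residual degree of freedom and called 0 of the 31 genes and 0 of 15273 genes (0%) at an adjusted p under 0.05. The smallest edgeR adjusted p among the 31 was 0.566, for ABCA2, whose reads were higher in the spheroid library of 2 of 2 lines as labelled and whose log2 fold over both lines was 1.56. At an unadjusted p under 0.05 this was 1 of the 31 genes and 8.24% of all genes. DESeq2 called 0 of the 31 and 591 of 15273 genes at an adjusted p under 0.05. Its unadjusted p was under 0.05 for 3 of the 31 genes and 11.3% of all genes. Each value of this test rests on the library labelled H1993 adherent, and without it the A549 pair alone has no test.

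**Figure D3:**
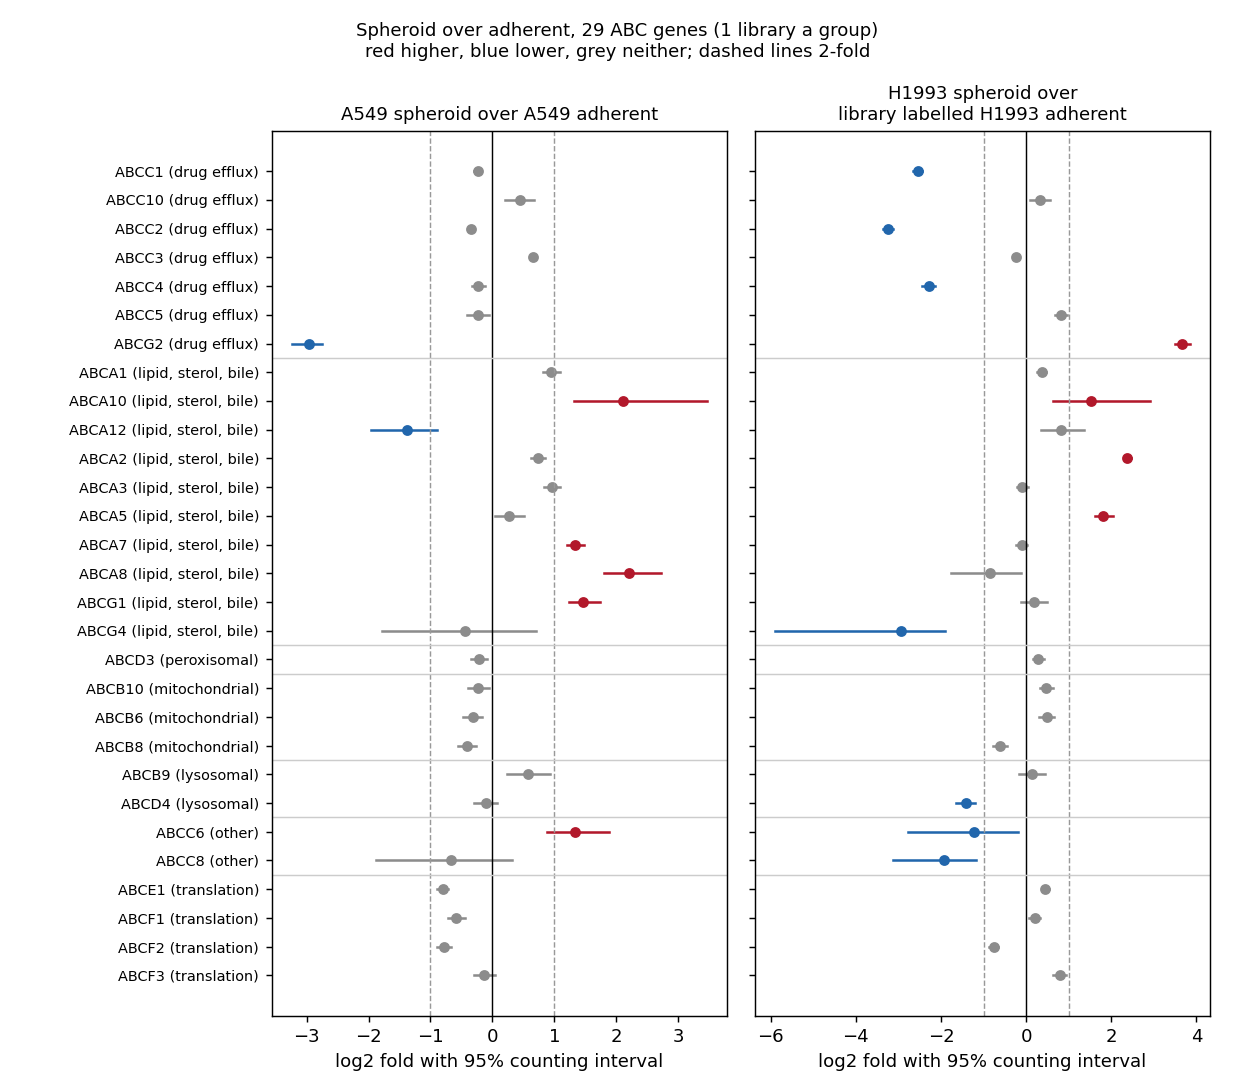
Log2 fold of spheroid over adherent (horizontal axis) for 29 of the 31 tested ABC genes, with the A549 pair on the left and the H1993 pair as labelled on the right. Points are folds of 1 library over 1 library and lines are 95% counting intervals, with ABCG2 at -2.97 on the left and 3.66 on the right, and ABCC1, ABCC2 and ABCC4 past 2-fold on the right alone.

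In H1993 spheroids against A549 spheroids, 5 of the 31 genes were higher and 7 lower, against 18.0% higher and 19.1% lower of all genes. ABCG2 was higher at 4.48 (4.27 to 4.72), ABCA2 at 1.66 (1.59 to 1.74), ABCA5 at 1.29 (1.11 to 1.49), ABCC5 at 1.20 (1.05 to 1.36) and ABCA12 at 1.11 (0.61 to 1.71). On the lower side stood ABCC6 at -3.66 (-5.18 to -2.92), ABCA8 at -3.43 (-4.28 to -2.89), ABCC2 at -3.38 (-3.50 to -3.26), ABCC1 at -2.70 (-2.82 to -2.60), ABCC4 at -1.67 (-1.84 to -1.52), ABCC3 at -1.40 (-1.44 to -1.36) and ABCG1 at -1.30 (-1.56 to -1.06). Drug efflux genes, which were 7 of the 31 tested, thus made up 4 of the 7 lower and 2 of the 5 higher genes. This comparison makes no use of the library labelled H1993 adherent, but shares the H1993 spheroid library with the H1993 pair.

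Between the libraries labelled H1993 adherent and A549 adherent, 2 of the 31 genes were higher and 3 lower, against 6.94% and 5.49% of all genes. ABCG2 at -2.15 (-2.34 to -1.99) was the largest difference in size, with ABCC8 at 1.26 (0.59 to 2.13), ABCG4 at 1.18 (0.40 to 2.25), ABCC6 at -1.09 (-1.93 to -0.43) and ABCA12 at -1.07 (-1.59 to -0.63). ABCC1, ABCC2 and ABCC4 were within 2-fold here, at -0.40, -0.47 and 0.39. The median size of the log2 difference over the 31 genes was 0.39 between these 2 libraries and 0.77 between the library labelled H1993 adherent and H1993 spheroids.

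**Figure D4:**
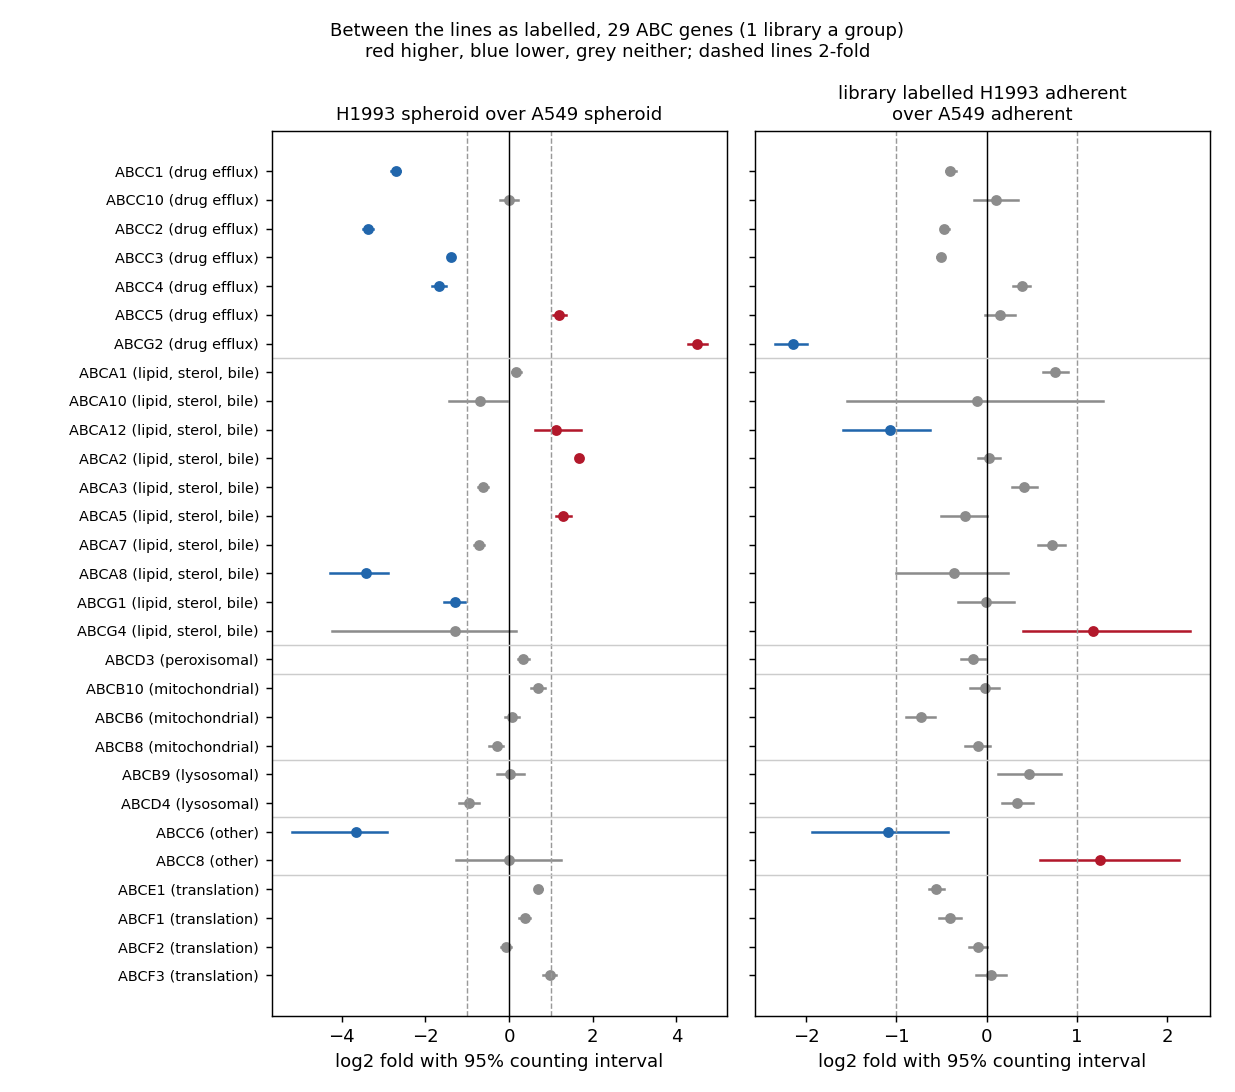
Log2 fold between lines as labelled (horizontal axis, with 95% counting intervals) for 29 of the 31 tested ABC genes, with spheroid libraries on the left and libraries labelled adherent on the right. On the left 12 genes are past 2-fold, among them ABCG2 at 4.48 and ABCC2 at -3.38, and on the right 5, with ABCG2 at -2.15.

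Reads in introns, which come largely from unspliced RNA and were not part of the counts above, gave a further readout in the same libraries. Their folds were scaled by the exon counts, so a fold of 0.00 need not equal that of intron reads over all genes. For all 8 genes with at least 100 reads that were past the rule in the H1993 pair, the intron reads differed in the same direction with an interval that excluded no change. ABCG2 had 32 and 272 intron reads there, a log2 fold of 3.19 (2.74 to 3.85), and ABCC2 had 1222 and 78, a fold of -3.75 (-4.14 to -3.46). In the A549 pair this held for 4 of 6 such genes, among them ABCG2, with 76 and 12 intron reads and a fold of -2.54 (-3.74 to -1.84). ABCA12 had only 7 and 2 intron reads. ABCA7 was the other exception, since its exon reads were 1.33 higher on the log2 scale while its intron reads were 181 and 189, a fold of 0.00 (-0.30 to 0.30). It was not alone in this, since ABCA1 and ABCA3, just under 2-fold in exon reads at 0.95 and 0.96, had intron folds of 0.03 (-0.44 to 0.51) and 0.21 (-0.40 to 0.86). ABCA2, at 0.74 in exon reads of the A549 pair, had 59 and 41 intron reads there, a fold of -0.57 (-1.20 to 0.01). In the H1993 pair the intron fold of ABCA2 was 2.72 (2.28 to 3.33). Between the libraries labelled adherent, 1 of the 3 genes past the rule with at least 100 reads had such an intron interval, ABCG2, while ABCC6 was at -0.12 (-0.94 to 0.68) and ABCA12 at -0.93 (-3.93 to 0.78). Between the spheroid libraries 12 of 12 had one. For ABCA7 the intron share of gene reads was 24.1% in A549 adherent cells and 11.2% in A549 spheroids, against 10.1% and 8.43% over all genes.

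**Figure D5:**
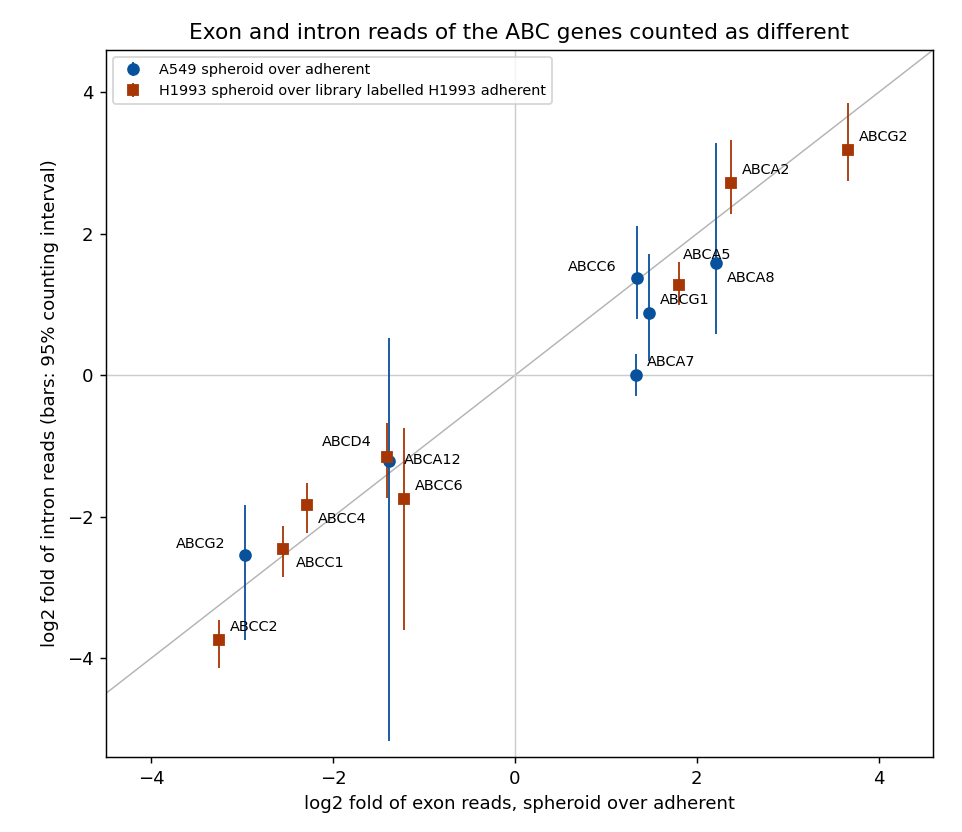
Log2 fold of exon reads (horizontal axis) against that of intron reads (vertical axis, bars are 95% counting intervals) for the ABC genes past the rule with at least 100 reads, 6 in the A549 pair and 8 in the H1993 pair as labelled. The grey diagonal marks equal folds, and ABCA7 lies at 0.00 on the intron axis.

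Partner genes of the transporters were counted from fixed lists. Of 12 tested genes of glutathione synthesis and conjugation, which make substrates for the ABCC pumps, 1 was higher and 0 lower in A549 spheroids, and 0 were higher and 6 lower in the H1993 pair, with medians of 0.36 and -1.01. GSTP1, the main glutathione transferase of lung, had 5542, 3370, 5216 and 321 reads, with log2 folds of -0.78 and -3.83, so H1993 spheroids were the low library. GSTA1, a glutathione transferase of liver with 4, 115, 1 and 0 reads, was not tested. Of 8 tested carriers that take up organic anions and cations, 3 were higher and 0 lower in A549, and 1 was higher and 3 lower in the H1993 pair. SLCO4A1, a thyroid hormone carrier, had 195, 1079, 199 and 22361 reads, and SLC22A3, a cation carrier, had 1417, 1240, 1376 and 120.

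Of 8 tested regulators and partners of sterol efflux, 3 were higher and 0 lower in A549 spheroids, and 4 were higher and 1 lower in the H1993 pair. APOE, a lipid acceptor, had 180, 1091, 129 and 833 reads, with log2 folds of 2.52 and 2.85, so both spheroid libraries were high. MYLIP, which degrades the lipoprotein receptor, was at -0.74 and 2.20. Among 4 tested sensors of bile acids and foreign compounds, 2 were higher in A549 and 0 past the rule in the H1993 pair, with NR1H4, the bile acid receptor, at 48, 231, 13 and 8 reads and AHR, the dioxin receptor, at 1255, 2628, 1926 and 2902. Of 8 heme and iron-sulfur partners 0 were past the rule in A549 and 1, NFS1, was higher in the H1993 pair. NFS1, a cysteine desulfurase, was at 0.25 in A549 and 1.32 in the H1993 pair. FECH, the last enzyme of heme synthesis, was at -0.91 and -0.58.

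LMBRD1, the partner of ABCD4, was higher in A549 spheroids at 1.34 and at -0.26 in the H1993 pair, and MMACHC, which processes cobalamin, was at 0.13 and 0.87. The ribosome recycling partners PELO and HBS1L and the channel pore KCNJ11 gave 0 genes past the rule in either pair. The channel pore KCNJ8, with at most 11 reads, was not tested. Of the 3 ABC genes with other symbols, CFTR, the chloride channel, had 6, 27, 3 and 32 reads. It was higher in the spheroid library of both pairs as labelled, at 1.81 and 2.91. TAP2, a peptide transporter of antigen presentation, was lower in A549 spheroids at -1.56 and at -0.23 in the H1993 pair. These lists were read against the share of all genes past the rule, which was 12.4% higher and 10.3% lower in A549 and 17.0% higher and 18.0% lower in the H1993 pair.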

How the data were processed

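Each sample was 1 library of total RNA made with a stranded mRNA kit, per the labels' protocols, and groups came from the titles. Genome build was hg38, per the submitters' processing notes. No source used here gives the aligner, the counter or the annotation release, and the use of strand in counting is likewise not given, which makes genes that overlap others uncertain. The authors deposited read counts per gene over exons and introns (total and unique), per the file headers, beside TPM, which summed to 1000000 in each library, and RPKM, which entered no comparison. TPM served for levels between genes and total exon counts for folds.

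Counts were filtered with filterByExpr (15273 genes kept) and scaled by TMM in edgeR 4.0.16. A prior count of 2 entered the log2 folds, with exact Clopper-Pearson 95% intervals of the 2 counts. PCR duplicates cannot be told apart, so intervals and the floor of 3 reads cover counting error only. Culture was tested over both lines with glmQLFTest, line as a term and Benjamini-Hochberg adjustment, with DESeq2 1.42.0 as an alternative. Nothing says how many cultures each library came from, so p-values measure only the spread between these libraries. With line as a term, that spread comes from how far the culture difference departed between the lines as labelled. The fold rule and the test were tested on simulated data. Genes with at least 100 reads in a library were named with their values, and up to 2 genes of each partner list, those with the largest fold in either pair. The members and lists were chosen with earlier results of these data known. Values of some genes are not reported here.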

Additional observations from a re-analysis of the deposited data

Results flagged for a closer look

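The difference between spheroid and adherent culture went opposite ways in the 2 lines for 2 genes, and this difference between lines was not tested, since there was 1 library a group. ABCG2 stood at a read count log2 fold of -2.97 in A549 and 3.66 in the H1993 pair as labelled. ABCC6 stood at 1.34 in A549 and -1.22 in the H1993 pair, from 24 and 8 reads in the latter. Both H1993 values rest on the library labelled H1993 adherent, which is closer to A549 adherent cells over all genes. Without that library, H1993 spheroids lay 4.48 above A549 spheroids for ABCG2 and -3.66 from them for ABCC6.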

How the results depend on the processing

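Counts of ABC genes past the rule kept within 1.5 times their value under other scalings, no filter, prior counts of 0.5 and 5, unique reads and removal of mitochondrial genes. With no filter on low counts they were 9 in place of 7 in A549, 13 in place of 11 in the H1993 pair, 14 in place of 12 between spheroids and 6 in place of 5 between the libraries labelled adherent. For the 28 genes with at least 100 reads in a library, 784 single folds were recomputed. Of these, 0 reversed among genes past the rule and 0 of those left it, though ABCC6 in the H1993 pair was at -1.02 with a prior count of 5. ABCA10, ABCC8 and ABCG4, with fewer reads, were not part of this check of single folds. Scaling by library size alone moved the median of all genes to -0.11 in A549 and brought ABCF3 past 2-fold between spheroids (1.06), and unique reads did so for ABCD4 (-1.02). The culture test over both lines called 0 of the ABC genes under each of the alternatives run, with the smallest adjusted p between 0.182 (DESeq2) and 0.613 (edgeR with no term for line). Line served as the block in that test, the labels carry no replicate numbers to pair by, and leaving out 1 library leaves it no residual degrees of freedom. Depth limits the 14 genes not tested, of which the highest had 20 reads.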

Other observations

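ABCC3 carried an intron share above the median gene, at 35.9%, 29.1%, 34% and 37.9% of its gene reads in the order of libraries used above. The median over protein-coding genes with at least 100 exon reads lay between 8.04% and 10.7% in these libraries. ABCC3 had 6398, 7762, 4539 and 4019 intron reads. ABCC1 and ABCC2 had intron shares between 6.05% and 15.4% over the 4 libraries, while some ABC genes with fewer reads had shares near or above that of ABCC3, among them ABCA5 with 25.9% to 34.7%, ABCB9 with 25.3% to 32.7% and ABCC6 with 36.4% to 53.8%. Between the spheroid libraries the intron reads of ABCC3 differed by -0.83 (-0.89 to -0.78) on the log2 scale and its exon reads by -1.40. No other gene row overlaps ABCC3 in these tables.

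ABCB1 had intron reads in all 4 libraries, 3, 16, 7 and 9, although exon reads were seen in A549 adherent cells alone, with 8. ABCB5 likewise had between 2 and 11 intron reads and at most 2 exon reads. The source of these intron reads was not tested.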
